A study of Mus musculus with 6 samples.

Results

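The interferon regulatory factors (IRFs) are a family of transcription factors that switch on interferon genes and the genes that interferons induce. The 8 members described here, Irf1, Irf2, Irf3, Irf4, Irf5, Irf7, Irf8 and Irf9, were taken by gene symbol from a table of 56980 mouse genes, and all 8 passed the low-count filter that left 16010 genes for testing. RNA came from monocytes of B16F10 tumours, a transplanted mouse melanoma that in this study carried the mCherry marker. The cells had been sorted as CD11b+ and high for Ly6C but lacking Ly6G, a gate for inflammatory monocytes that leaves out neutrophils. Every library carried the genotype label WT. Of the 6 libraries, 3 came from tumours given lipid nanoparticles for green fluorescent protein (LNP-GFP) and 3 from tumours given lipid nanoparticles for gasdermin E (LNP-Gsdme), a protein that forms pores in the cell membrane. The sources used here do not give age, dose, route or time of treatment. Whether each library stands for its own animal is also not stated, and the p-values therefore cover the variation among these 6 samples, part or all of which could be technical.

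All IRF proteins carry a related DNA-binding domain that reads the interferon-stimulated response element (ISRE) and related sites. Irf3, Irf5 and Irf7 lie in the cytoplasm until sensors of foreign nucleic acid or bacterial products lead to their phosphorylation, whereupon they enter the nucleus and drive interferon genes. Irf9 acts on the receiving side: with phosphorylated STAT proteins it forms ISGF3, the complex that turns on interferon-stimulated genes, Irf7 among them. Irf1 is induced by interferon gamma and activates antigen presentation genes, and Irf2 binds many of the same sites, often as a repressor. Irf4 and Irf8 are lymphoid and myeloid factors that act with partners such as PU.1. Irf8 directs monocyte and dendritic cell development, and Irf4 is linked to alternative activation of macrophages and to dendritic cells.

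The promoters of 4 members are printed: those of Irf7 and Irf2 because these members rose, and those of Irf1 and Irf8 because, with Irf2, they hold the matches to a STAT motif. Each is the 250 bases before an annotated start, from RefSeq sequences on GRCm38.p6, matched by symbol, with matches to 3 motifs in capitals.
Irf7 promoter, chr7:141266425-141266674, minus strand: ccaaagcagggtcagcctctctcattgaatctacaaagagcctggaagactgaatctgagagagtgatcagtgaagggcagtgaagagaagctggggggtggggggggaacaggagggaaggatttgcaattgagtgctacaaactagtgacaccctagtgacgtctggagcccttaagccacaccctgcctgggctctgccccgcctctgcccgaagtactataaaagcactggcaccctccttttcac
Irf2 promoter, chr8:46739495-46739744, plus strand: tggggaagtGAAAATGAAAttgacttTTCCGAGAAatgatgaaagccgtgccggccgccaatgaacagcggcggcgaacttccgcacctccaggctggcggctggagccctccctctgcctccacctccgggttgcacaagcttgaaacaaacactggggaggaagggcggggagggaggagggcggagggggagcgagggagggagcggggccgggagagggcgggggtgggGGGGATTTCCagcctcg
Irf1 promoter, chr11:53769764-53770013, plus strand: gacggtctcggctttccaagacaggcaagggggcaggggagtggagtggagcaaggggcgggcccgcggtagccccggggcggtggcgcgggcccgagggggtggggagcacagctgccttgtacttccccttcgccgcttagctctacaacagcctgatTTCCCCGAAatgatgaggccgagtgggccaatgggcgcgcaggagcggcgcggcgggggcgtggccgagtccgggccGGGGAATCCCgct
Irf8 promoter, chr8:120736108-120736357, plus strand: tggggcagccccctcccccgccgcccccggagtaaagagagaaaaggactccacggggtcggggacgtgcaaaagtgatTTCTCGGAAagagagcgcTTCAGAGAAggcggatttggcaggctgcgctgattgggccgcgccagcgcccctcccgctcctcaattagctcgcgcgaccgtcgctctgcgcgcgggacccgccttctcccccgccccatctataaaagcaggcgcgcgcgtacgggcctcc
Capitals mark the ISRE core (GAAA and GAAA parted by any 2 bases), the gamma-activated site that STAT dimers bind (GAS, TTCNNNGAA) and the NF-kB consensus, each searched on both strands, and no match overlapped another. The Irf2 window held 1 match to each motif: GAAAATGAAA, TTCCGAGAA and GGGGATTTCC. Irf1 held a GAS match, TTCCCCGAA, and an NF-kB match, GGGGAATCCC, and Irf8 held the GAS matches TTCTCGGAA and TTCAGAGAA. The table has 11 start sites for the 8 members, and a further window of Irf1 and one of Irf8, not printed, held no match. No letters of these motifs were found in the window of Irf7, nor in those of Irf3, Irf4, Irf5 and Irf9. Among 32851 mouse promoters of this length, 2.98% held the ISRE core, 7.02% the GAS motif and 7.25% the NF-kB consensus. Counted by gene, with a match in any of its windows, the shares were 3.46%, 8.13% and 8.23% of 27025 genes. A match describes the letters only, and a window without one leaves the rest of the gene unsearched.

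Counts per library were 22932095, 22323501 and 20233559 in LNP-GFP 1 to 3 and 18015501, 15991826 and 18751784 in LNP-Gsdme 1 to 3. Gsdme itself was low in the sorted cells of both groups, at 2.79 to 4.44 CPM (counts scaled to a common library total, with TMM factors for differences in library composition) in LNP-GFP and 2.68 to 3.43 CPM in LNP-Gsdme. The LNP-GFP libraries were unequal. Of 7070 genes with a mean of at least 20 CPM, LNP-GFP 3 lay between the other LNP-GFP libraries in 71.0%, and each other library lay between those of its group in 14.3% to 38.5%. The monocyte markers summed to 11130 to 12080 CPM in LNP-GFP and 9407 to 11590 CPM in LNP-Gsdme, and Ly6g, which the gate excludes, was at most 0.618 CPM. Ly6c2, which encodes the sorting antigen, was at 211 to 267 CPM in LNP-GFP and 1374 to 1856 CPM in LNP-Gsdme. Fewer cells of a type and less RNA per cell cannot be told apart in such bulk samples.

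After LNP-Gsdme, Irf7 and Irf2 rose, and none of the other 6 members passed the test. Irf7 rose 2.86-fold and Irf2 1.85-fold (edgeR quasi-likelihood test, Benjamini-Hochberg adjusted p = 0.00473 and 0.0146). The background share of risen genes was 6.3% and that of fallen genes 5.32%. In 6 members, namely Irf1, Irf2, Irf3, Irf5, Irf7 and Irf8, each LNP-Gsdme library lay above every LNP-GFP library, a pattern that 19.6% of all tested genes showed. The median log2 fold change of the 8 members was 0.52, beside -0.0066 for all tested genes. A second tool, DESeq2, called those same 6 members risen, where it called 19.1% of genes, 9.43% risen and 9.71% fallen. The number called varied with the libraries. Only 1 member (Irf7) passed without LNP-GFP 3, without LNP-Gsdme 1 or without LNP-Gsdme 2. Without LNP-Gsdme 3 the number was 3, and without LNP-GFP 1 it was 5. The number of all genes called varied too: 1008 rose and 851 fell in the full fit. With 1 library left out, 64 to 1625 rose and 24 to 1216 fell.

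**Figure D1:**
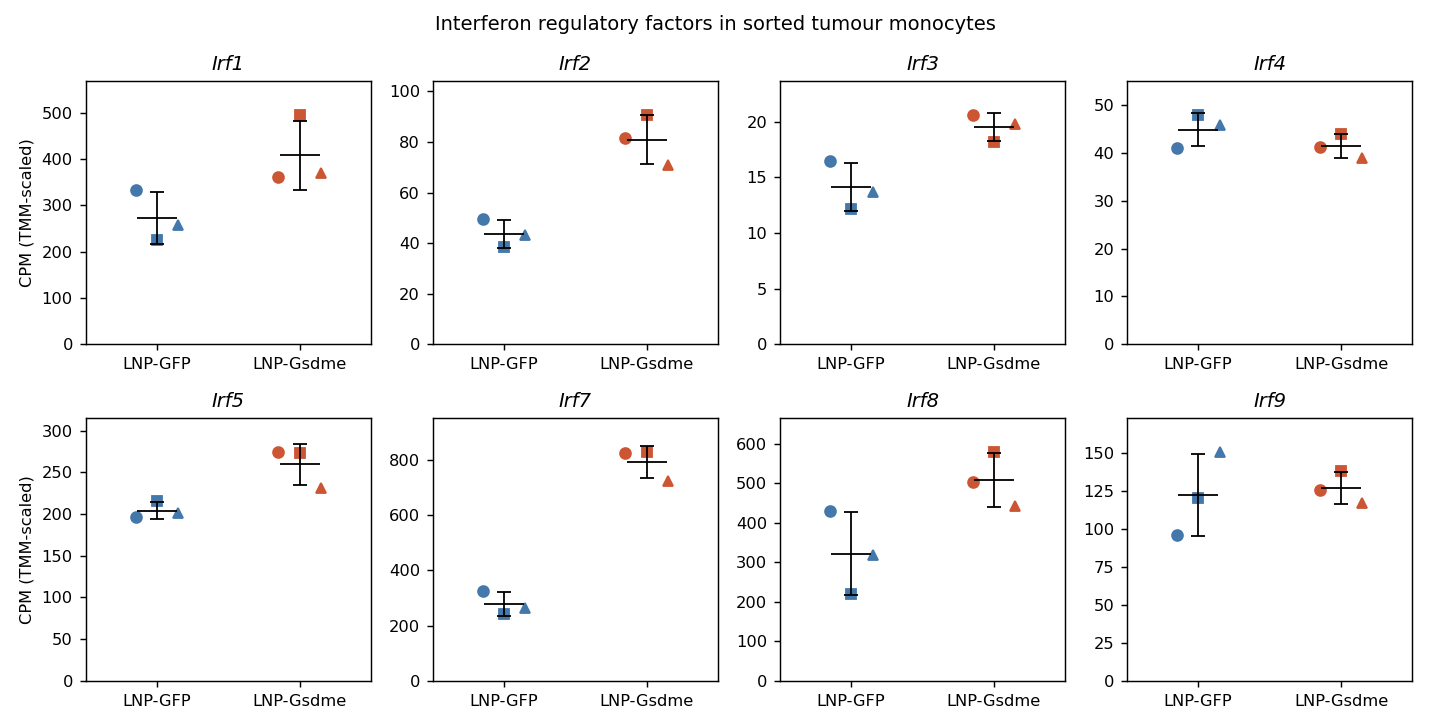
Level of each interferon regulatory factor in CPM (vertical axis, from 0, scaled per gene) in the LNP-GFP and LNP-Gsdme libraries; circles, squares and triangles are replicates 1, 2 and 3, and black bars are the mean and SD. The 3 LNP-Gsdme values of Irf7 sit between 724 and 828 CPM and those of LNP-GFP between 242 and 325, whereas the groups overlap for Irf4 and Irf9.

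Irf7 (ENSMUSG00000025498, chromosome 7, 140842619 to 140846394, GRCm39), the inducible factor that amplifies type I interferon production, showed the largest change of the family. In LNP-GFP 1 to 3 it had 325, 242 and 264 CPM, and in LNP-Gsdme 1 to 3 it had 825, 828 and 724 CPM. Even the lowest LNP-Gsdme library was well above the highest LNP-GFP library. The mean went from 277 ± 43.2 to 792 ± 59.1 CPM (SD, n = 3), a log2 fold change of 1.52 ± 0.13 (SE; edgeR adjusted p = 0.00473). This placed Irf7 at rank 113 from the top among 16010 genes. With any 1 library left out the log2 fold change was 1.43 to 1.66 and edgeR's adjusted p stayed below the threshold, at 0.00566 to 0.0474. When LNP-GFP 1 alone stood for the controls, the log2 fold change was 1.29 and the adjusted p by edgeR was 0.0587.

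Irf3 (chromosome 7, 44647072 to 44652272), the constitutive partner of Irf7 that acts first after sensing, was the lowest member by every measure used. It was at 16.4, 12.2 and 13.7 CPM in LNP-GFP and 20.6, 18.2 and 19.8 CPM in LNP-Gsdme. The groups did not overlap, and the log2 fold change was 0.47 ± 0.13 (n = 3 per group, SE; edgeR adjusted p = 0.0683). Without LNP-GFP 1 it was 0.60 with an edgeR adjusted p of 0.0267, and without LNP-GFP 2 it was 0.38 (0.133). The gene shares 1065 bases with Bcl2l12 on the other strand, which had 91 to 162 counts per library beside 266 to 384 for Irf3. Bcl2l12 itself rose (log2 fold change 0.77, edgeR adjusted p = 0.0431), and since the strand setting of the counting is not known, how reads were divided between the genes was not tested.

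Irf5 (chromosome 6, 29526624 to 29541870), which acts downstream of Toll-like receptors, had values close together within each group. They were 197, 215 and 201 CPM in LNP-GFP and 274, 274 and 231 CPM in LNP-Gsdme. The groups did not overlap, and the log2 fold change of 0.35 ± 0.09 fell just outside the threshold (SE, n = 3 per group; edgeR adjusted p = 0.0577). It passed without LNP-Gsdme 3 (0.43, edgeR adjusted p = 0.0286). Irf5 was the one member whose coefficient of variation was not larger in LNP-GFP (4.79%) than in LNP-Gsdme (9.55%).

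Irf2 (ENSMUSG00000031627, chromosome 8, 47192767 to 47300493) was the other member that rose. Its levels were 49.5, 38.4 and 43.2 CPM in LNP-GFP and 81.4, 90.5 and 71.0 CPM in LNP-Gsdme, with a wide gap between the groups. The mean went from 43.7 ± 5.56 to 81.0 ± 9.78 CPM (SD, n = 3), a log2 fold change of 0.89 ± 0.13 (SE; edgeR adjusted p = 0.0146). The size of the change held at 0.805 to 0.999 with any 1 library left out, but the call did not. The edgeR adjusted p was 0.0859 without LNP-GFP 3, 0.0706 without LNP-Gsdme 1 and 0.0657 without LNP-Gsdme 2.

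Irf1 (ENSMUSG00000018899, chromosome 11, 53660841 to 53669200), the activator that competes with Irf2 for shared sites, was among the more abundant members. It was at 334, 226 and 259 CPM in LNP-GFP and 360, 494 and 370 CPM in LNP-Gsdme. The groups came close, with LNP-GFP 1 just below the lowest LNP-Gsdme library. The log2 fold change was 0.58 ± 0.18 (n = 3 per group, SE; edgeR adjusted p = 0.0878, DESeq2 adjusted p = 0.0254). Without LNP-GFP 1, its highest control, it was 0.76 (edgeR adjusted p = 0.0338), and against LNP-GFP 1 alone it was 0.30 (0.553).

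Irf8 (chromosome 8, 121463097 to 121483433), which specifies monocytes and dendritic cells together with PU.1, had the widest spread among the controls. It was at 430, 219 and 318 CPM in LNP-GFP, a coefficient of variation of 32.8%, and at 504, 579 and 444 CPM in LNP-Gsdme. LNP-GFP 1 reached almost to the lowest LNP-Gsdme library, and LNP-GFP 2 was far below both. The log2 fold change was 0.66 ± 0.24 (n = 3 per group, SE; edgeR adjusted p = 0.121, DESeq2 adjusted p = 0.0440). It was 0.93 without LNP-GFP 1 (edgeR adjusted p = 0.0324) and 0.45 without LNP-GFP 2 (0.167). The same order of controls, with LNP-GFP 1 highest and LNP-GFP 2 lowest, was seen in 5 members: Irf1, Irf2, Irf3, Irf7 and Irf8. The share of all genes with this order was not computed. LNP-GFP 3 lay between the other controls in 71.0% of the 7070 genes with a mean of at least 20 CPM.

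Markers of NK and T cells followed that order too. NK cell markers summed to 561, 147 and 345 CPM in LNP-GFP 1 to 3 and to 556 to 733 CPM in LNP-Gsdme. T cell markers summed to 559, 194 and 372 CPM in LNP-GFP and to 477 to 609 CPM in LNP-Gsdme. Melanoma markers ran the other way, at 670, 2577 and 1650 CPM in LNP-GFP and 423 to 1051 CPM in LNP-Gsdme. Of these sums, Gpnmb alone gave 319, 690 and 517 CPM in LNP-GFP and 290, 293 and 271 CPM in LNP-Gsdme, a large part of the lower ones. Fibroblast markers were at 9977 to 11190 CPM in LNP-GFP and 2432 to 6285 CPM in LNP-Gsdme. Each of these 4 lists has 10 genes, of which none was at 0 in every library. By edgeR, 1 of 9 tested NK cell markers (Gzma) rose, 0 of 10 T cell and 0 of 10 melanoma markers were called, and 5 of 10 fibroblast markers fell. At an unadjusted p below 0.05 in that fit, 1 T cell marker was higher and 2 melanoma markers were lower. DESeq2 called 3 NK cell markers risen, 0 T cell markers, 1 melanoma marker (Gpnmb) fallen and 8 fibroblast markers fallen, and limma-voom called 2, 0, 0 and 7. Leaving out LNP-GFP 3, LNP-Gsdme 1 or LNP-Gsdme 2 removed the edgeR calls in all 4 lists, leaving out LNP-GFP 2 removed those of fibroblasts, and leaving out LNP-GFP 1 gave 4 risen NK cell markers, 1 risen T cell marker, 1 fallen melanoma marker and 4 fallen fibroblast markers. Leaving out LNP-Gsdme 3 gave 2 risen NK cell, 2 fallen melanoma and 9 fallen fibroblast markers. Ncr1, which defines NK cells, was at most 0.936 CPM, and Cd3e, part of the T cell receptor complex, was at 29.9 to 101 CPM. Their part in the levels of Irf8, Irf1 or the other members was not tested. Markers of plasmacytoid dendritic cells, known for high Irf7 and Irf8, summed to 435, 314 and 370 CPM in LNP-GFP and 686, 716 and 699 CPM in LNP-Gsdme. Most of that sum was Bst2, itself an ISGF3 target, which rose (log2 fold change 1.20, edgeR adjusted p = 0.00491), and Lair1, also found on other leukocytes, averaged 70.0 and 138 CPM (0.98, edgeR adjusted p = 0.162). Of the other 8 markers, Siglech, at 2.22 to 5.74 CPM in LNP-GFP and 1.01 to 1.56 CPM in LNP-Gsdme, fell (-1.74, edgeR adjusted p = 0.0389), a call absent with limma-voom and without LNP-GFP 2, LNP-GFP 3 or any 1 LNP-Gsdme library. DESeq2 also called Ccr9 of that list fallen (log2 fold change -1.50, DESeq2 adjusted p = 0.00168, edgeR adjusted p = 0.054). Conventional dendritic cell markers summed to 387 to 424 CPM in LNP-GFP and 260 to 323 CPM in LNP-Gsdme. Of these 10 markers edgeR called 1 risen and 2 fallen, and DESeq2 1 risen and 5 fallen. The edgeR calls numbered 0 without LNP-GFP 3 or LNP-Gsdme 1. Macrophage markers summed to 4156 to 6274 CPM in LNP-GFP and 4302 to 4589 CPM in LNP-Gsdme. Neutrophil markers summed to 189 to 438 and 240 to 448 CPM, B and plasma cell markers to 54.6 to 76.2 and 50.6 to 74.9 CPM, and endothelial markers to 335 to 401 and 249 to 326 CPM.

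**Figure D2:**
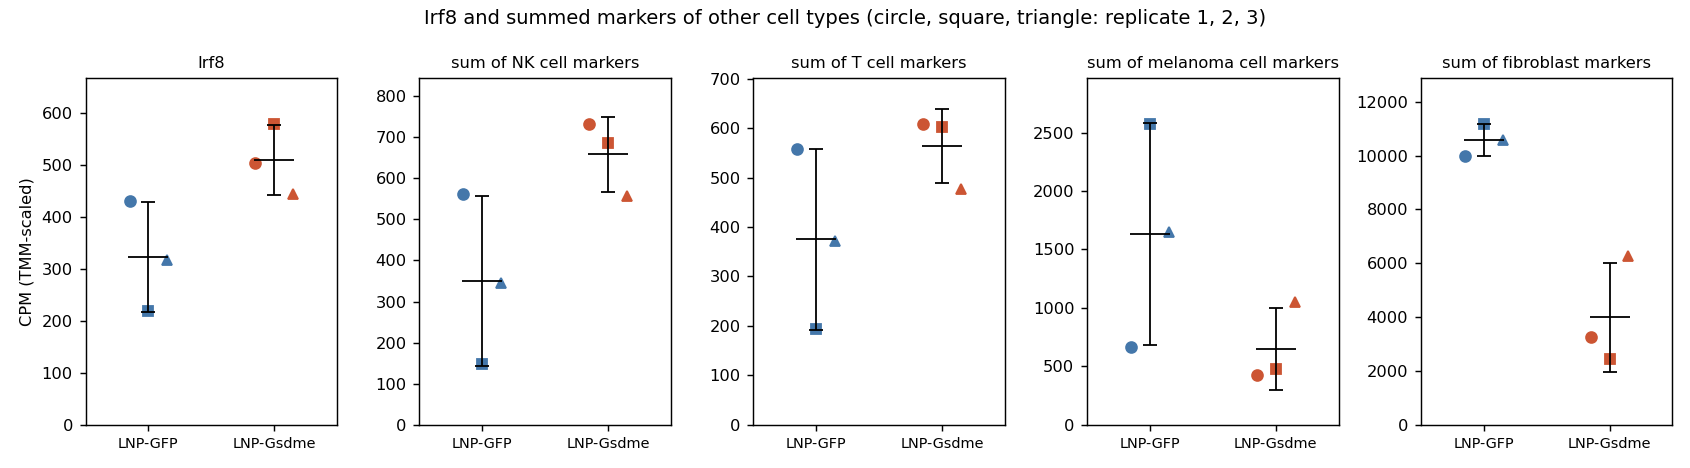
Irf8 and the summed markers of NK cells, T cells, melanoma cells and fibroblasts in CPM (vertical axes, from 0) in each library, with the mean and SD of 3 libraries as black bars. Irf8, NK cell and T cell markers are lowest in LNP-GFP 2 and highest among controls in LNP-GFP 1, and melanoma markers are highest in LNP-GFP 2.

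Irf4 (chromosome 13, 30933209 to 30950959), which shares partners with Irf8, was at 41.0, 47.9 and 45.9 CPM in LNP-GFP and 41.3, 44.0 and 39.0 CPM in LNP-Gsdme. The groups overlapped, and it was the one member with a fitted change below 0 (log2 fold change -0.12 ± 0.09, SE, n = 3 per group; edgeR adjusted p = 0.413). Irf9 (chromosome 14, 55841028 to 55847487), the DNA-binding subunit of ISGF3, was at 96.2, 120 and 150 CPM in LNP-GFP and 125, 138 and 117 CPM in LNP-Gsdme. All LNP-Gsdme values lay inside the LNP-GFP range. Its log2 fold change was 0.05 ± 0.17 (n = 3 per group, SE; edgeR adjusted p = 0.854), and with 1 library left out it ranged from -0.08 to 0.23. Irf9 thus held no direction, and LNP-GFP 3 rather than LNP-GFP 1 was its highest control.

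**Figure D3:**
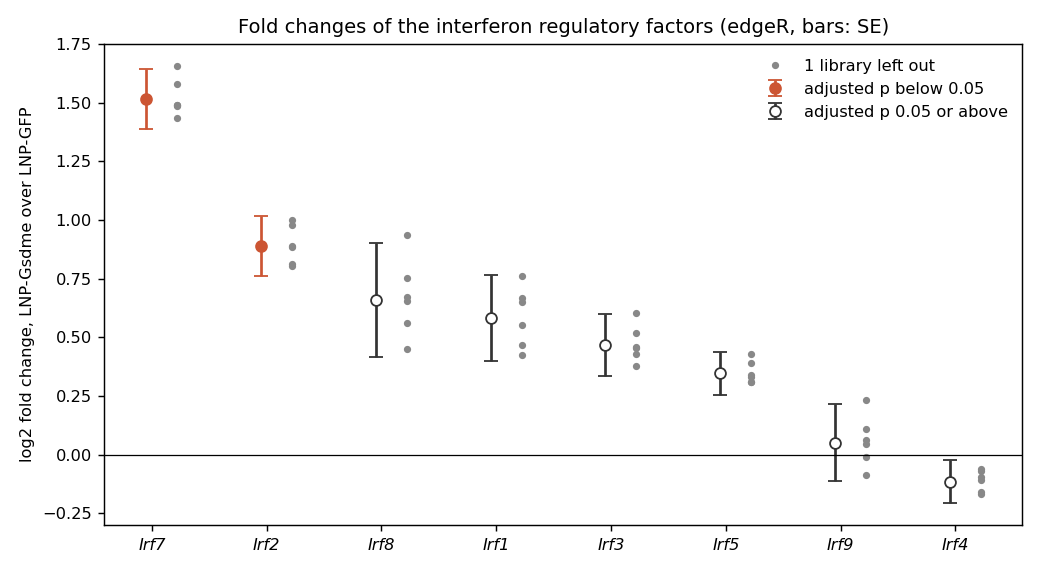
Log2 fold change of each member, LNP-Gsdme over LNP-GFP (large points, bars are the SE derived from the edgeR test), with the value when each of the 6 libraries was left out (grey points). Filled points are the members that passed, Irf7 at 1.52 and Irf2 at 0.89; the points of Irf9 lie on both sides of 0.

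Ratios of 2 members within a library do not depend on how libraries are scaled, and 3 pairs were compared. The ratio of inducible Irf7 to constitutive Irf3 was 19.8, 19.9 and 19.3 in LNP-GFP and 40.1, 45.6 and 36.6 in LNP-Gsdme. The controls were almost equal, although LNP-GFP 1 and LNP-GFP 2 differed for each gene alone, and the ratio was 2.07-fold higher in LNP-Gsdme. The ratio of activator Irf1 to repressor Irf2 was 6.74, 5.88 and 5.99 in LNP-GFP and 4.42, 5.46 and 5.21 in LNP-Gsdme, or 0.809 of the control ratio. The ratio of Irf8 to Irf4 was 10.5, 4.57 and 6.93 in LNP-GFP and 12.2, 13.2 and 11.4 in LNP-Gsdme, 1.77-fold higher. In log2 units this last difference was 0.82, and leaving out LNP-GFP 2 gave 0.52 and leaving out LNP-GFP 1 gave 1.12. None of the 3 pairs overlapped between groups. Each gave a two-sided exact permutation p of 0.1 (0.1 adjusted over the 3), the smallest that 20 assignments of the libraries can give. The share of other gene pairs without overlap was not computed. Of single genes in CPM, 19.6% were higher and 18.2% lower in LNP-Gsdme without overlap.

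**Figure D4:**
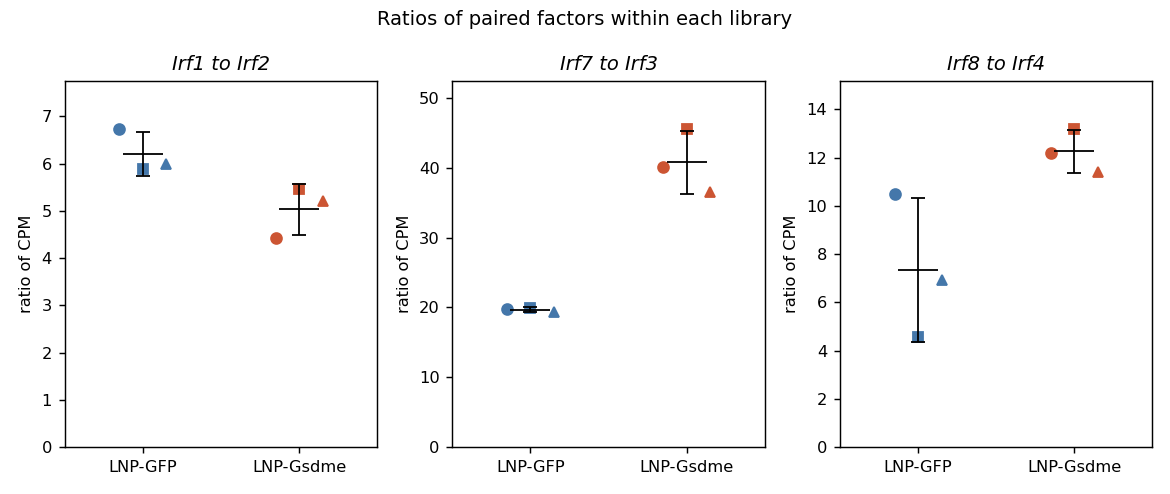
Ratio of the CPM of 2 members in each library (vertical axis, from 0), with the mean and SD of 3 libraries as black bars. The ratio of Irf7 to Irf3 sits between 19.3 and 19.9 in LNP-GFP and between 36.6 and 45.6 in LNP-Gsdme, and the ratio of Irf1 to Irf2 is lower in LNP-Gsdme.

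Levels were also set against 2 leukocyte genes. Ptprc, which encodes CD45, the surface protein of nearly all blood-derived cells, was at 608 to 723 CPM in LNP-GFP and 759 to 796 CPM in LNP-Gsdme. Relative to Ptprc, the log2 difference was 1.29 for Irf7, 0.66 for Irf2, 0.36 for Irf1 and 0.25 for Irf3, without overlap between groups (exact permutation p = 0.1, adjusted 0.2 over 8 members). Irf8 (0.48), Irf5 (0.11), Irf9 (-0.16) and Irf4 (-0.34) overlapped on that scale. Relative to Itgam, the CD11b gene of the sort, Irf7 (1.69), Irf2 (1.05) and Irf8 (0.87) did not overlap (exact permutation p = 0.1, adjusted 0.267). The share of all genes without overlap on these 2 scales was not computed.

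Members can be compared with each other only per length of transcript, in FPKM (fragments per kilobase of exon, scaled by library size). In the deposited FPKM of LNP-GFP, Irf5 was first at 56.9 ± 2.12, followed by Irf1 (46.9 ± 10.01), Irf8 (36.0 ± 12.2) and Irf7 (26.8 ± 4.47; SD, n = 3 each). Among these 4 each neighbour's range overlapped the next. Irf9 (13.1 FPKM), Irf4 (8.43 FPKM), Irf2 (3.82 FPKM) and Irf3 (1.67 FPKM) followed, each range clear of its neighbours. In LNP-Gsdme, Irf7 was first at 78.0 ± 4.19 FPKM, overlapping Irf5 at 73.6 ± 5.48 FPKM and Irf1 at 71.4 ± 12.9 FPKM. The deposited lengths match the sum of distinct annotated exons, with stretches that different exons share counted each time, in 96.2% of 11278 genes (within 0.1%). For Irf7 that length is 10234 bases, although the gene itself spans 3776, and for Irf3 it is 8384 bases where merged exons give 3442. Per kilobase of merged exons, Irf7 was first in both groups, at 73.4 ± 11.4 CPM per kilobase in LNP-GFP, overlapping Irf5, and at 210 ± 15.7 in LNP-Gsdme, clear of Irf1 at 103 ± 18.8. On this scale Irf2 lay below Irf4 in LNP-GFP (5.91 against 9.16 CPM per kilobase) and above it in LNP-Gsdme (10.9 against 8.45), with no overlap in either group. This crossing depends on the length used. In deposited FPKM of LNP-Gsdme, Irf2 (7.20) stayed below Irf4 (7.93), with overlapping ranges. The merged exons of Irf7 fill its whole span of 3776 bases.

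The genes around the family were described through 12 lists holding 120 tested genes, of which 34 rose and 4 fell. Of all tested genes, edgeR called 6.3% risen and 5.32% fallen, the shares that stand beside each list below. The lists were chosen with earlier results of these data known. The risen genes numbered 8 without LNP-GFP 3, 10 without LNP-Gsdme 1 and 10 without LNP-Gsdme 2. The fallen genes numbered 0 without LNP-GFP 3, 0 without LNP-Gsdme 1, 2 without LNP-Gsdme 2 and 9 without LNP-GFP 1. Across all genes, 64 to 1625 rose and 24 to 1216 fell with 1 library left out. Of the 28 called genes picked by the naming rule, 7 passed whichever library was left out: Tlr4, Zbp1, Oas1a, Bst2, Ifi44, Ddx60 and Nos2. In the lists where edgeR called 0 fallen genes, DESeq2 called Ifnb1, Traf6 and Jak1 fallen and limma-voom called 0.

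The ligands that IRFs induce were scarce. Of 21 interferon genes, 8 were at 0 in all libraries and 2 could be tested, neither of which passed in edgeR (1 higher and 1 lower at an unadjusted p below 0.05). DESeq2 called Ifnb1 fallen (adjusted p = 0.0197) and Ifng risen (0.00355), and limma-voom called Ifng risen. In edgeR, Ifng rose without LNP-GFP 1 and without LNP-GFP 2. Ifnb1, the first target of Irf3, was at 17.1, 17.3 and 20.3 CPM in LNP-GFP and 14.3, 10.2 and 12.9 CPM in LNP-Gsdme (log2 fold change -0.55 ± 0.15, SE, n = 3 per group; edgeR adjusted p = 0.0622). Every LNP-Gsdme library was below the controls, opposite to Irf7. Ifng, made by NK and T cells and an inducer of Irf1, was at 13.4, 4.17 and 9.34 CPM in LNP-GFP and 23.2, 25.5 and 20.4 CPM in LNP-Gsdme (1.36 ± 0.38, edgeR adjusted p = 0.0669).

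Among the sensors that activate Irf3, Irf5 and Irf7, 6 of 10 rose and 0 fell, with a median log2 fold change of 0.61. Without LNP-GFP 3 the risen sensors numbered 2, and without LNP-Gsdme 1 or LNP-Gsdme 2 they numbered 3. Tlr4, the receptor for bacterial lipopolysaccharide, averaged 10.9 ± 2.33 CPM in LNP-GFP and 68.9 ± 10.1 CPM in LNP-Gsdme (SD, n = 3), a log2 fold change of 2.66 (edgeR adjusted p = 0.00292). Zbp1, a sensor of Z-form nucleic acid, rose by 1.07, Dhx58, a modulator of RNA helicase sensing, by 0.76, and Tlr3, a receptor for double-stranded RNA, by 0.57 on the log2 scale. Of 16 adaptors and kinases, 3 rose and 0 fell, with a median of 0.25. They were Tasl (0.61), the adaptor that recruits Irf5, Irak4 (0.58), a Toll-like receptor kinase, and Tank (0.46), a scaffold for the kinase Tbk1. Tbk1, which phosphorylates Irf3 and Irf7, had a log2 fold change of -0.07 and did not pass. None of these 3 adaptor calls held without LNP-GFP 3, LNP-Gsdme 1 or LNP-Gsdme 2, and that of Irak4 was also lost without LNP-GFP 2.

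On the receiving side, 3 of 11 receptor, JAK and STAT genes rose and 0 fell, with a median log2 fold change of 0.20. Stat2, which joins Irf9 in ISGF3, did not pass (0.52, edgeR adjusted p = 0.141). Tyk2 (0.68), a kinase of the type I receptor, and Ifngr2 (0.49), a chain of the interferon gamma receptor, were among those that rose. Of 11 partners and coactivators, 2 rose and 0 fell: Batf2 (1.11), which can pair with Irf1, and Ikzf1 (0.51), a lymphoid zinc finger factor. Spi1, which encodes PU.1, the partner of Irf4 and Irf8, had a log2 fold change of 0.12 and did not pass. Of 12 inhibitors and corepressors, 3 rose and 0 fell, with a median of 0.46. These were Socs1 (0.82), an inhibitor of JAK kinases, Ptpn6 (1.14), a phosphatase, and Irf2bpl (0.58), a relative of the Irf2 corepressors. Without LNP-GFP 3, LNP-Gsdme 1 or LNP-Gsdme 2 none of the genes of these 3 lists passed, and Tyk2 and Ifngr2 did not pass without LNP-GFP 2 either.

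Known targets were counted by the factor they are best linked with, although most answer to several IRFs. Of 20 ISGF3 targets, 8 rose and 0 fell, with a median log2 fold change of 0.62 (5 rose without LNP-GFP 3). Ifi44 rose by 2.82, Ddx60, an RNA helicase, by 1.65, Bst2, which tethers virus particles, by 1.20, and Oas1a, which makes the activator of RNase L, by 1.02. Oas1a sat at 158 to 164 CPM in LNP-GFP and 311 to 343 CPM in LNP-Gsdme. Other ISGF3 targets did not pass: Rsad2 was at 0.00 and Ifit1 at -0.68 on the log2 scale. Of 18 Irf1 targets, 8 rose and 0 fell, with a median of 0.30. Without LNP-GFP 3, LNP-Gsdme 1 or LNP-Gsdme 2 the number was 1, which was Nos2. Nos2, the inducible nitric oxide synthase, was at 47.3, 48.7 and 49.5 CPM in LNP-GFP and 126, 115 and 130 CPM in LNP-Gsdme (1.35 ± 0.08, SE, n = 3 per group; edgeR adjusted p = 0.00207). Nlrc5, which drives MHC class I genes, rose by 0.71 and Casp1, the inflammasome protease, by 0.68, whereas Cxcl9 (0.08) and Cxcl10 (0.05) did not pass. Reads of the Oas1 and Gbp families may be shared among near-identical copies, so Oas1a is uncertain.

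Of 4 Irf2 targets, 2 rose and 0 fell, with a median of 0.49. Gsdmd, the gasdermin whose gene needs Irf2, was at 93.8, 77.5 and 85.5 CPM in LNP-GFP and 144, 147 and 128 CPM in LNP-Gsdme (0.71 ± 0.10, SE, n = 3 per group; edgeR adjusted p = 0.0132). Like Irf2, Gsdmd and Tlr3 lost their calls without LNP-GFP 3, LNP-Gsdme 1 or LNP-Gsdme 2. Casp4 (0.06) did not pass. Of 6 Irf5 targets, 1 fell and 0 rose, with a median of -0.59. It was Il12b, a subunit of interleukin 12, with a log2 fold change of -0.64, and this call was lost with any 1 library left out (edgeR adjusted p = 0.0672 to 0.157). Of 6 tested Irf4 targets, 2 fell and 0 rose, with a median of -1.29. They were the chemokine Ccl22, at 29.8 to 45.6 CPM in LNP-GFP and 8.97 to 13.9 CPM in LNP-Gsdme (-1.68), and the lectin Cd209a (-2.90), a dendritic cell marker. Both lost their calls without LNP-GFP 3 or LNP-Gsdme 1, and 4 targets fell without LNP-GFP 1. Of 7 Irf8 targets, Klf4, a monocyte factor, rose (0.51) and Cybb, a subunit of the phagocyte oxidase, fell (-0.61), and neither passed without LNP-GFP 2, LNP-GFP 3, LNP-Gsdme 1 or LNP-Gsdme 2.

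**Figure D5:**
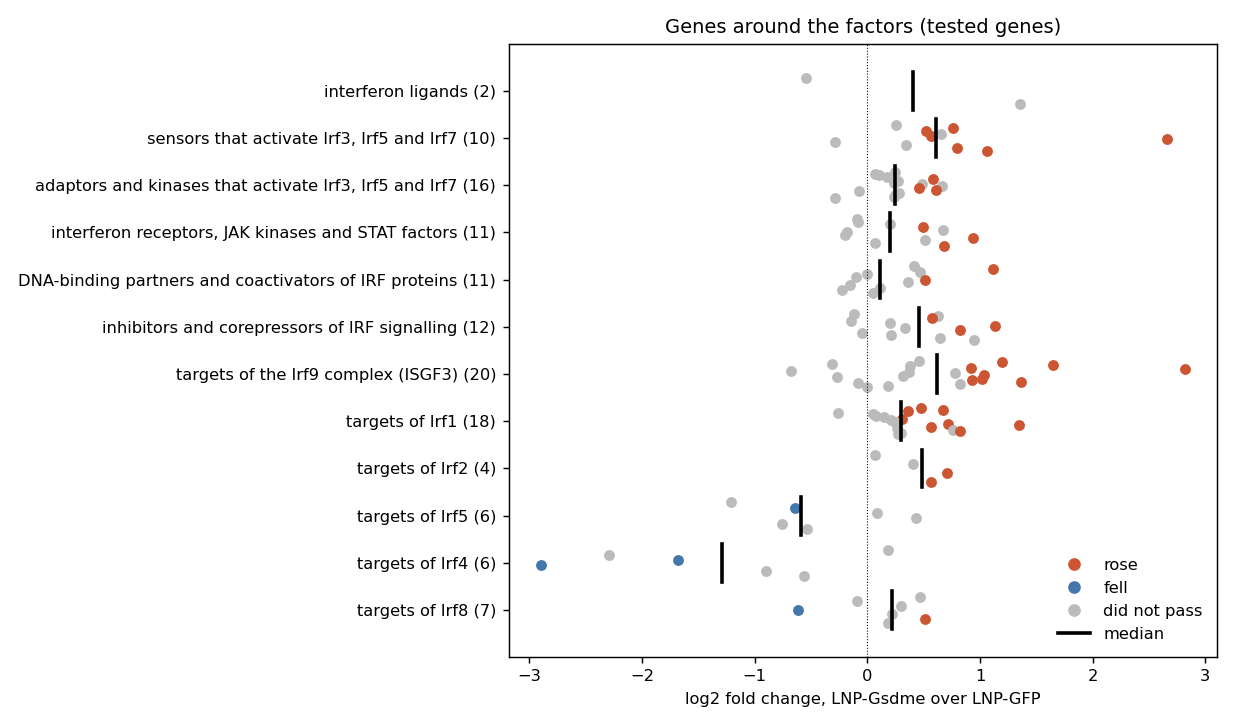
Log2 fold change, LNP-Gsdme over LNP-GFP, of every tested gene in 12 lists around the family (number of tested genes in brackets); orange points rose, blue points fell, grey points did not pass, and black lines are list medians. The medians of sensors (0.61) and ISGF3 targets (0.62) lie above 0, and those of Irf5 targets (-0.59) and Irf4 targets (-1.29) below it.

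The genes most like the called members over the 6 libraries were found by the root mean square difference of log2 CPM, each gene centred on its own mean, among 7405 genes. For Irf7 they were Treml2 (0.051), a receptor of the TREM family, and Epsti1 (0.101), an interferon-responsive gene. Treml2 was at 35.3, 28.3 and 30.2 CPM in LNP-GFP and 96.5, 91.6 and 87.5 CPM in LNP-Gsdme. For Irf2 they were Fosl2 (0.037), an AP-1 subunit, and Fbxw17 (0.048), an F-box protein. Fosl2 was at 375, 272 and 320 CPM in LNP-GFP and 579, 643 and 503 CPM in LNP-Gsdme. As in Irf2 and Irf7, LNP-GFP 1 was the highest control and LNP-Gsdme 3 the lowest treated library in Fosl2. Because Fosl2 was picked for its likeness to Irf2 over these same libraries, the order it shares with Irf2 is no further result.

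Annotated neighbours overlap other members as well. Irf7 shares 45 bases with Phrf1 on the other strand, which had a log2 fold change of 0.00. Irf5 shares 1045 bases with Tnpo3 on the other strand (-0.19, not called). Irf9 shares 123 bases with Rnf31 on its own strand, which rose (0.34, edgeR adjusted p = 0.0499). Irf1 contains Gm17334 on the other strand, with 72 to 133 counts beside 4930 to 7923 for Irf1. The 3 loci inside Irf2 were at 0 in every library.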

How the data were processed

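Per the file headers, the authors deposited raw counts and FPKM for every library in 1 table. The submitters' processing notes name GRCm39 as the build, and no aligner, counter, strand setting or annotation release is named in the sources used here. Per the labels' protocols, column-extracted, DNase-treated total RNA was made into paired-end TruSeq libraries. Groups come from the treatment labels.

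The counts went into edgeR 4.0.16 (R 4.3.3). Its filterByExpr by group left 16010 genes, TMM factors were 0.980 to 1.04, and the groups were tested by robust quasi-likelihood, adjusted over all tested genes (Benjamini-Hochberg; called below 0.05). The biological coefficient of variation was 0.193. The SE of a log2 fold change was derived as its absolute value divided by the square root of the F statistic of that test. CPM use TMM-scaled totals of tested genes. The script was tested on simulated data. Deposited FPKM served only for levels between genes. Ratios were tested by exact permutation.

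Members and gene lists were chosen with earlier results of these data known. Per list, the called genes with the smallest p, up to 4, or the 1 smallest where none was called, were named, with the 2 most similar genes per called member and overlapping genes. Marker lists are given as sums. Other genes were named after their values were seen. One symbol was matched through an older name. Alternatives were DESeq2 1.42.0, limma-voom (limma 3.58.1), other scalings and filters, no robust fitting, a replicate block, adjusted p below 0.01 and each library left out. LNP-GFP 1 or 2 alone, Ptprc or Itgam as reference and merged-exon lengths were added after seeing the data. Promoters were matched by symbol only, because the RefSeq table is on another build. Values of some single genes are not reported here.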

Additional observations from a re-analysis of the deposited data

How the results depend on the processing

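Irf7 kept its direction under every setting run and lost its call only against LNP-GFP 1 alone (1.29); the exact test on values relative to Ptprc or Itgam cannot go below 0.1 and gives no call. Irf2 kept its direction under every setting run, and its call was lost under the replicate block (0.89, adjusted p = 0.0627), at adjusted p below 0.01 (0.89) and against LNP-GFP 1 alone (0.72). DESeq2 called Irf1 (0.57), Irf3 (0.46), Irf5 (0.34) and Irf8 (0.65). Irf5 passed with library size only (0.37) and with the stricter filter (0.35), and Irf8 passed against LNP-GFP 2 alone (1.23). Irf4 turned to 0.022 against LNP-GFP 1 alone and was 0.05 relative to Itgam. Irf9 turned to -0.085 without LNP-GFP 1 and to -0.01 without LNP-Gsdme 2.

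Risen members numbered 6 by DESeq2, 1 under the replicate block, 1 at adjusted p below 0.01, 0 against LNP-GFP 1 alone, and 1 to 5 with 1 library left out. Of all genes, 1008 rose and 851 fell. The counts were 103 and 52 under the replicate block and 131 and 52 at adjusted p below 0.01. DESeq2 gave 1514 fallen. With 1 library left out, 64 to 1625 rose and 24 to 1216 fell. Of the listed genes, 10 rose and 1 fell under the replicate block and 11 and 0 at adjusted p below 0.01, and DESeq2 gave 10 fallen. With 1 library left out 8 to 42 rose and 0 to 9 fell. Relative to Ptprc, the log2 differences of Irf2 (0.66), Irf3 (0.25), Irf5 (0.11, groups overlapping) and Irf7 (1.29) lay further below those on the CPM scale than 1 SD of the replicates. The log2 fold change of Ptprc itself was 0.23 (edgeR adjusted p = 0.125). Dividing by Ptprc lowers every member by about that amount, so the members named differ from the rest only in replicate SD. With merged exons, 4 of 8 places in the order of levels were kept in each group. The causes of the other differences between settings were not tested. Fits that leave out a library or use 1 control have fewer samples, and the block leaves fewer residual degrees of freedom.

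Leaving out 1 library gave log2 fold changes of 0.42 to 0.76 for Irf1, 0.805 to 0.999 for Irf2, 0.38 to 0.60 for Irf3, -0.17 to -0.06 for Irf4, 0.31 to 0.43 for Irf5, 1.43 to 1.66 for Irf7, 0.45 to 0.93 for Irf8 and -0.08 to 0.23 for Irf9. A single control is assumed to vary like the other group. The labels link same-numbered libraries by nothing but the number. Their deviations from the group means correlated by 0.262, -0.297 and 0.0656, and not every library correlated best with its own number. With 3 libraries per group, these values cannot decide whether libraries were matched. The replicate block changed no member's call except that of Irf2. Depth limits Irf3 most, at 266 to 384 counts per library, and the interferon genes.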
